A study of Mus musculus with 4 samples.

Results

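The genes described here are 37 genes of the cell cycle: 15 that work in DNA replication and 22 that work in mitosis. They were chosen by name, and each was read from its brightest probe set with a single gene symbol in the array's annotation. Of the 37, 36 were measured, 15 replication genes and 21 mitosis genes, among 19938 genes with a probe set of their own. The expression of Ccnb1, which encodes cyclin B1, was not analysed here.

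The series asks how heme acts on Bach1, a heme-binding transcriptional repressor, and on the macrophage transcription factor Spic. Bone marrow cells of the B6 background were grown with 20 ng/ml GM-CSF, a growth factor for myeloid cells, in medium with 10% fetal calf serum. On day 6 the cultures received either heme (given in the labels as 40 µm) or its vehicle, 0.15 M NaCl with 10% NH4OH, and RNA was taken 24 hours later from the cells that still adhered. The 4 groups were Bach1 (-/-) with heme, Bach1 (-/-) with vehicle, Bach1 (+/+) with heme and Bach1 (+/+) with vehicle, called knockout and wild type below. Each group held 1 array. The differences below therefore come without replicates, and no error or p-value stands beside them. Array values were linear RMA signals.

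Proliferating cells make the proteins of DNA replication and of mitosis in successive waves. Transcription factors of the E2F family switch on replication genes ahead of DNA synthesis, and the MuvB complex with B-MYB and FOXM1, acting through CHR elements and often beside the CCAAT boxes bound by NF-Y, switches on mitosis genes before division. In marrow cultured with GM-CSF, dividing myeloid precursors give way to adherent macrophages and dendritic-type cells that divide little, so that cell cycle transcripts report on the dividing share of a culture. In bulk RNA, fewer dividing cells and less RNA per dividing cell cannot be told apart.

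Promoters were examined because replication and mitosis genes are known to carry different regulatory elements, and the choice of the genes did not use them. RefSeq promoters (build GRCm38.p6, from 250 bases before to 50 bases after an annotated start) were on hand for 12 of the 15 replication genes and 18 of the 22 mitosis genes. The CHR core TTTGAA stood, on either strand, in the promoters of 13 of 18 mitosis genes (72.2%) and in 1 of 12 replication genes (8.33%, Mcm2), against 20.2% of 27025 genes in the promoter table. With TTTAAA counted as a further core, the matches rose to 16 of 18 mitosis genes (88.9%) and 4 of 12 replication genes (33.3%). The share of all genes was then 30.6%, so the replication genes lay near it. The NF-Y box CCAAT stood in 16 of 18 mitosis genes (88.9%) and 8 of 12 replication genes (66.7%), against 41.1% of all genes. An E2F site, searched as TTCGCGC or TTGGCGC on either strand, stood in 5 of 12 replication genes (41.7%: Mcm3, Mcm5, Mcm6, Mcm7 and Cdt1) and 3 of 18 mitosis genes (16.7%: Cdk1, Mki67 and Ccnb1), against 4.47% of all genes. Matches of different motifs were counted separately where they overlapped. Among other genes of the same processes, the CHR core stood in 33 of 48 mitosis promoters and the E2F site in 7 of 26 replication promoters. A match describes letters and is no evidence of a bound factor.

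**Figure D1:**
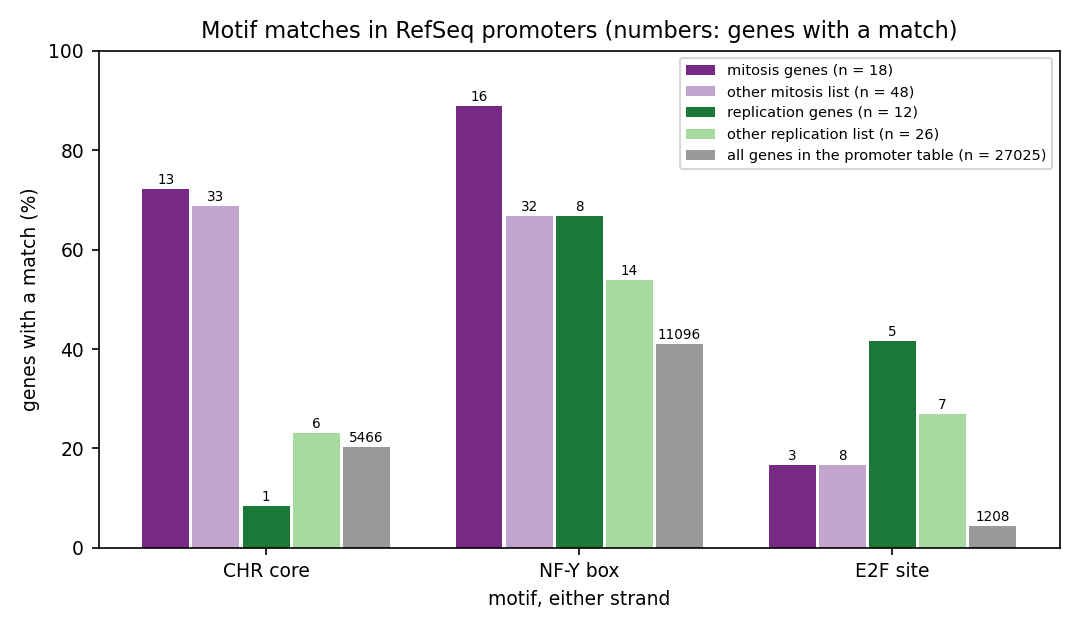
Share of genes (percent, vertical axis) whose RefSeq promoter held each motif on either strand, for the mitosis and replication genes, other genes of both processes and all genes in the promoter table. Numbers over the bars count genes with a match, and the CHR core stood in 13 of 18 mitosis genes and 1 of 12 replication genes.

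The promoters of 3 subunits of the MCM helicase, which unwinds DNA at the replication fork, are shown because these genes differed most between arrays among the helicase genes. Mcm7 has 2 starts in the table, and the one with E2F matches is shown. The Mcm5 promoter lies at chr8:75109259-75109558 (plus strand), the Mcm6 promoter at chr1:128359656-128359955 (minus strand) and the Mcm7 promoter at chr5:138171834-138172133 (minus strand). Capitals mark E2F sites, read 5′ to 3′ on the strand of the gene. The letters of overlapping matches run together.
Mcm5: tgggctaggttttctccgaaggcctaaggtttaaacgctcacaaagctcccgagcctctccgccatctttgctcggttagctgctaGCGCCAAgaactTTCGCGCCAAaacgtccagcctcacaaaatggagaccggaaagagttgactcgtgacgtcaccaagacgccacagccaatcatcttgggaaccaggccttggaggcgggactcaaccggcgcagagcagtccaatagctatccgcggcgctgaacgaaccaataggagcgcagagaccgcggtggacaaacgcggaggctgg
Mcm6: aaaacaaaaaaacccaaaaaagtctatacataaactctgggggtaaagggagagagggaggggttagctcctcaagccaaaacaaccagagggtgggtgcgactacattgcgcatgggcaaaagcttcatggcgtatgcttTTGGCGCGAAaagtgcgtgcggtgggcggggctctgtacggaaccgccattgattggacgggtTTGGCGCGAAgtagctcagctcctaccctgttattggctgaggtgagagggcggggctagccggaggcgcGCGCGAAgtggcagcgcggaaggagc
Mcm7: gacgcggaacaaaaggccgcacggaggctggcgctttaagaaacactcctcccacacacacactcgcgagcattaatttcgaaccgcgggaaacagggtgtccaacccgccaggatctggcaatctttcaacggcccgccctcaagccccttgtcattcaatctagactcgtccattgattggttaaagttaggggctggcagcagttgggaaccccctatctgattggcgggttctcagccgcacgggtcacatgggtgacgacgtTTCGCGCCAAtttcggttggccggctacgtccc

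Promoters of mitosis genes follow, for the kinase gene Cdk1, the proliferation marker gene Mki67 and the centromere genes Cenpa and Cenpf, to show CHR cores and NF-Y boxes in 1 view. They lie at chr10:69352863-69353162 (minus strand), chr7:135716330-135716629 (minus strand), chr5:30666636-30666935 (plus strand) and chr1:189688037-189688336 (minus strand). Capitals mark TTTGAA and CCAAT, or ATTGG where the box reads on the opposite strand.
Cdk1: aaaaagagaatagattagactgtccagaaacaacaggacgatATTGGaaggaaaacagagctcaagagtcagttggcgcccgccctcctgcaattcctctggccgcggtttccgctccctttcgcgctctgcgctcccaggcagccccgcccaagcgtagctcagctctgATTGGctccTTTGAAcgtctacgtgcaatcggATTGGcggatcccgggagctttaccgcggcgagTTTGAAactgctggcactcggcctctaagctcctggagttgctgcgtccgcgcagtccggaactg
Mki67: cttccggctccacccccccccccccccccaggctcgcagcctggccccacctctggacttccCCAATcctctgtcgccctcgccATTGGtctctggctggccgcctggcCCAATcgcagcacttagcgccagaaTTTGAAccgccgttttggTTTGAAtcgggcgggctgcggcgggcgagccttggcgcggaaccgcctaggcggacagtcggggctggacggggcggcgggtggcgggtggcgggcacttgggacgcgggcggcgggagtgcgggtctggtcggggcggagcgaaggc
Cenpa: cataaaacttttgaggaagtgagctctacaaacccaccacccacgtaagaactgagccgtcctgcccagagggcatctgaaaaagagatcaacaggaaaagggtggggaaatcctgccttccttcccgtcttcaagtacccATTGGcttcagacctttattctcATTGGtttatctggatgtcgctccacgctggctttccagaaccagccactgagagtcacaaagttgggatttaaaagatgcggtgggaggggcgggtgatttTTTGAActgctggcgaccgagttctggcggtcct
Cenpf: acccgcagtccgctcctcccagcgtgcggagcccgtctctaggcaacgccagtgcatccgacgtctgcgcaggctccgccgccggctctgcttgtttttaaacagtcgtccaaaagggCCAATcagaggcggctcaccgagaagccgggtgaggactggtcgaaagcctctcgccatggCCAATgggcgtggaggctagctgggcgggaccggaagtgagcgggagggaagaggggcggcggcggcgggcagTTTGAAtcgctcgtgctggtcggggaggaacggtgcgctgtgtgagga

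In Cdk1 the CHR cores began at positions -71 and -15 from the annotated start, in Cenpa at 17, in Cenpf at 3 and in Mki67 at -116 and -98. Over the mitosis genes, the 18 CHR matches, counted from each annotated start, began at a median position of -16.5. The same Prc1 sequence was counted from 2 starts, at -5 and -30. The E2F sites of Mcm6 began at -109, -106, -46, -43 and 25, with 2 overlapping pairs, while those of Mcm5 began at -164, -152 and -149.

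The arrays were close to each other: median signals lay between 30.4 and 31.4, and pairwise Pearson r over log2 signals of probe sets was 0.975 to 0.981. Hmox1, the heme-degrading enzyme that Bach1 represses, read 10330 in knockout heme and 9047 in knockout vehicle, and 9881 in wild-type heme and 1827 in wild-type vehicle. The Bach1 probe set read 204 in knockout heme and 211 in knockout vehicle, and 264 in wild-type heme and 212 in wild-type vehicle. The sources used here do not place its probes relative to the deletion, so this probe set checks nothing about the labels. Markers of cell types were set against the median signal of all probe sets, which is no detection call. Of all 19938 genes, 11155 reached it on some array. Of macrophage markers 12 of 12 measured, and of dendritic markers 9 of 13, reached it on some array. Neutrophil markers reached it in 13 of 13, with summed signals of 9553 to 15113. Of lymphoid markers, 0 of 12 reached it.

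None of the 36 cell cycle genes differed by 2-fold between any pair of arrays compared. A gene counted as higher or lower when the difference reached 2-fold and the brighter array reached 30.96, the median signal of all probe sets. The counts were 0 higher and 0 lower of 36 in all 4 comparisons of arrays, and 33 to 35 of the 36 reached that level. A gene can pass the level through its brighter array alone. Over all genes at level, 1.2% were 2-fold higher and 0.452% 2-fold lower with heme in the knockout, and 1.17% and 0.891% with heme in wild type. Between genotypes, 0.519% were higher and 0.973% lower in knockout with heme, and 0.525% and 1.14% with vehicle. At such shares, 0 of 36 is near the background. Across the 4 arrays the cell cycle genes spanned a median range of 0.44 on the log2 scale, with the ends at 0.14 for Cdc20 and 0.98 for Mcm6, against 0.39 for all genes at level.

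The vehicle-treated knockout array stood apart in the direction of these genes. It was the highest of the 4 arrays for 21 of 36 genes and shared the highest signal with wild-type vehicle at Cdk1, whereas it was the highest for 27.7% of all genes. It was the lowest for 1 gene, Kif11, against 23.2% of all genes. Measured from each gene's own mean over the 4 arrays, the median cell cycle gene stood at 0.18 on this array, and at -0.04 in knockout heme, -0.07 in wild-type heme and -0.05 in wild-type vehicle (log2). The 4 values for all genes lay within 0.01 of 0.

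**Figure D2:**
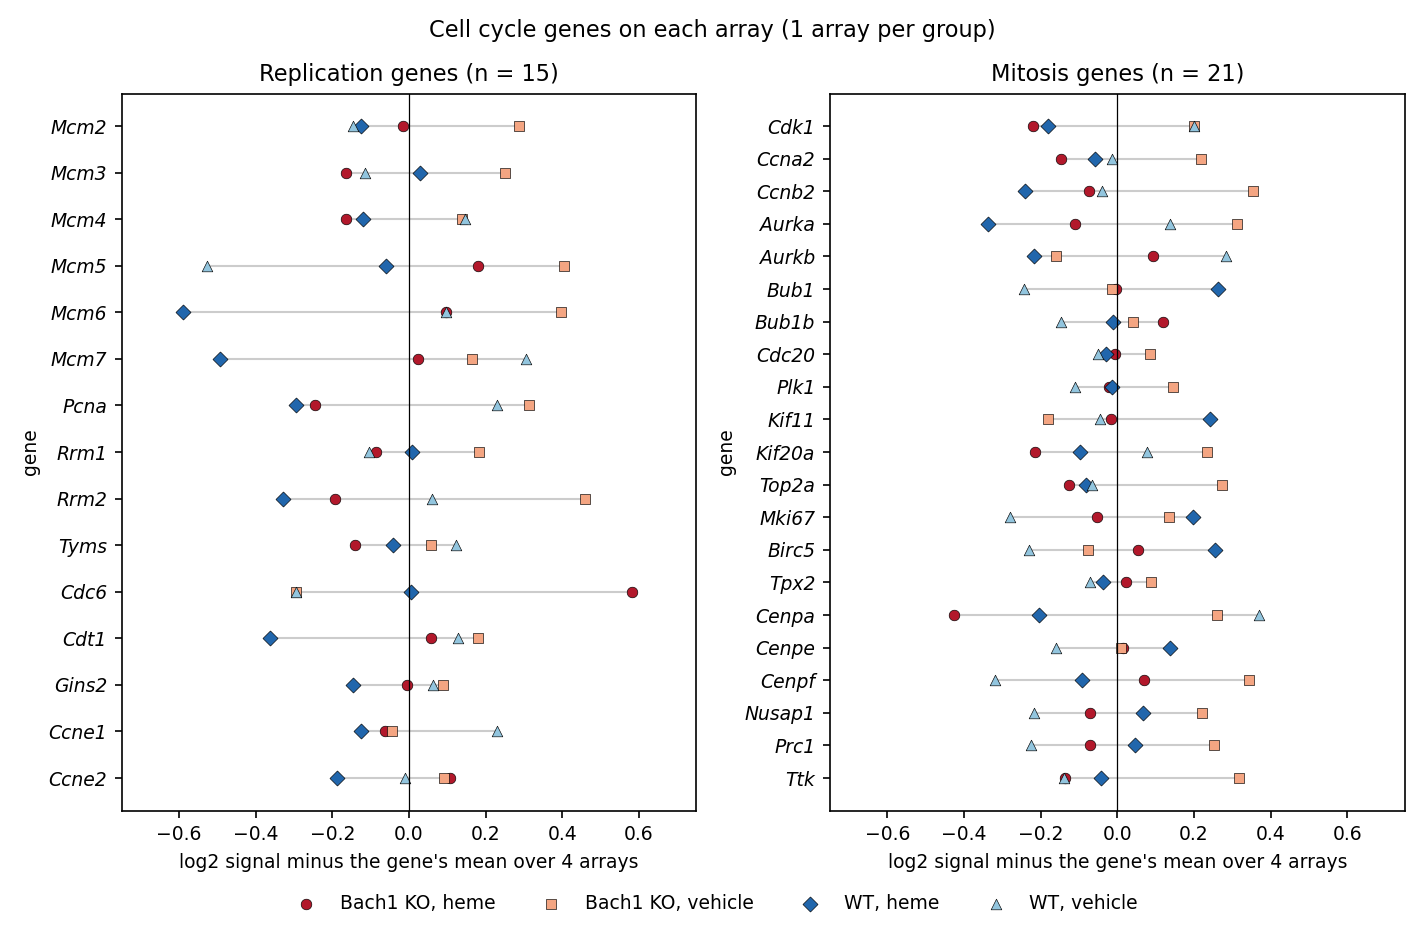
Log2 signal of each gene minus its mean over the 4 arrays (horizontal axis), for 15 replication and 21 mitosis genes (vertical axis); each point is 1 array and the grey line joins the lowest and highest. The knockout vehicle array (pale squares) was the highest for 21 of the 36 genes.

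Heme in the knockout left most cell cycle genes lower. Of the 36, 28 were lower and 8 higher with heme than with vehicle, and 52.5% of all genes, or 47.5% of genes at level, were lower. The median difference was -0.25 on the log2 scale, with -0.22 for replication and -0.27 for mitosis genes, against -0.02 for all genes. For single genes, the robust SD of the difference over genes at level was 0.28. At 1.5-fold, 2 genes were lower, Cenpa and Rrm2, and 1 was higher, Cdc6, where 3.07% and 5.03% of genes at level were. In wild type the same treatment split the genes evenly, with 18 lower and 18 higher (49.1% of all genes and 48.6% of genes at level were higher). The wild-type median was 0.00, with -0.21 for replication and 0.10 for mitosis genes. At 1.5-fold, 2 were lower in wild type, Mcm7 and Mcm6, and 0 higher, where 4.73% and 4.99% of genes at level were.

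Without heme, the knockout had more of most cell cycle transcripts. Of the 36 genes, 28 were higher in knockout vehicle than in wild-type vehicle, 7 were lower and Cdk1 was equal, and 51.7% of all genes, or 47.3% of genes at level, were higher. The median difference was 0.17, with 0.08 for replication and 0.19 for mitosis genes, against 0.01 for all genes. Mcm5 and Cenpf were higher by 1.5-fold and 0 genes lower, where 3.25% and 4.31% of genes at level were. Cenpf passed the level through the knockout array alone. With heme in both cultures the genes split 18 higher and 18 lower in the knockout (50.2% of all genes and 52.0% of genes at level were higher), with a median of 0.01. Replication genes then had a median of 0.13, with 11 of 15 higher, and mitosis genes -0.09, with 14 of 21 lower. Mcm6 was 1.5-fold higher and 0 genes lower, where 3.38% and 3.43% were. The heme response of the knockout and the genotype difference in vehicle share the knockout vehicle array. The 2 comparisons that do not use it, heme in wild type and genotype with heme, are those with the even splits, and they share the wild-type heme array.

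**Figure D3:**
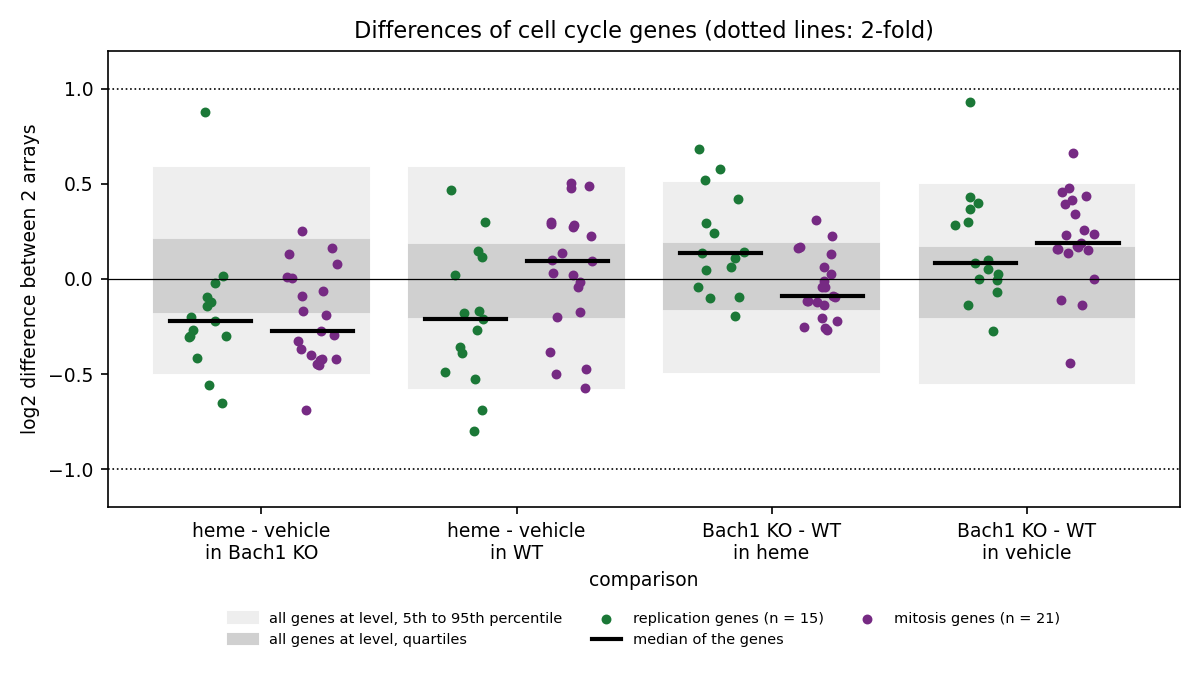
Log2 difference (vertical axis) of every replication and mitosis gene in the 4 comparisons of 2 arrays; points are genes, black bars their medians and grey bands the quartiles and the 5th to 95th percentiles of all genes at level. All points lie inside the dotted lines at 2-fold, and the medians are -0.22 and -0.27 for heme in the knockout and 0.08 and 0.19 for the knockout in vehicle.

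The difference between the heme responses, knockout minus wild type, was below 0 for 19 of 21 mitosis genes and for 8 of 15 replication genes, against 50.4% of all genes and 45.6% of genes at level. Its median was -0.27 for mitosis and -0.03 for replication genes, and it could not be tested with 1 array per group. The 2 mitosis genes above 0 were the Aurora kinase genes, Aurkb at 0.75 and Aurka at 0.05. At 2-fold 0 of 36 were higher and 0 lower, where 1.17% and 0.879% of genes at level were. At 1.5-fold it was higher for Aurkb and Mcm7 (0.66) and lower for Mcm5 (-0.69), Mki67 (-0.67) and Prc1 (-0.60), where 6.27% and 5.15% of genes at level were.

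The heme responses of both genotypes share no array, so a gene lower in both is measured by 2 separate pairs of arrays. Of the 36 genes, 16 were below 0 in both and 6 above 0 in both, where 29.6% and 26.3% of all genes, and 29.5% and 30.7% of genes at level, were. Picked after their values were seen, 6 genes were lower in both genotypes by at least the robust SD of each comparison: Mcm6, Pcna, Rrm2, Cdk1, Aurka and Cenpa. Of all genes 4.27% met that rule, and 5.62% of genes at level. Cdc6 alone was higher in both by the same rule, as were 4.39% of all genes and 6.71% of genes at level. Across the 36 genes the responses had a Pearson r of 0.35 and a Spearman rho of 0.39. Across all genes r was 0.30; genes of 1 pair of arrays share that pair and are not independent.

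**Figure D4:**
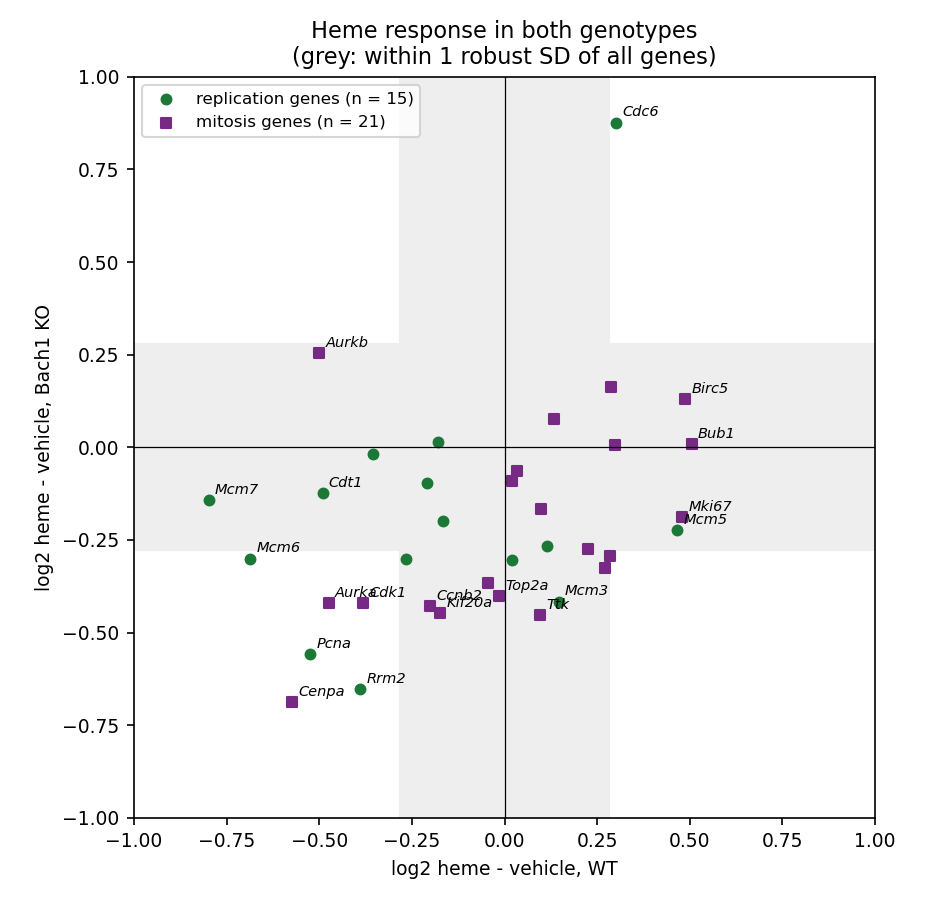
Log2 heme response in wild type (horizontal axis) and in the knockout (vertical axis) of 15 replication and 21 mitosis genes; grey bands cover 1 robust SD of all genes at level in each comparison. Cenpa, Rrm2 and Pcna lie at the lower left, lower with heme in both genotypes, and Cdc6 at the upper right.

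Among replication genes, the sliding clamp that holds polymerases on DNA gave one of the plainest readings. Pcna read 753 in knockout heme and 1109 in knockout vehicle, and 728 in wild-type heme and 1047 in wild-type vehicle. Both heme arrays were below both vehicle arrays. The heme difference was -0.56 in the knockout and -0.53 in wild type, and the genotype difference 0.05 with heme and 0.08 with vehicle. A second Pcna probe set gave the same 4 differences to 2 decimals at signals of 736, 1084, 711 and 1023, so it adds no separate reading.

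Enzymes that supply deoxynucleotides followed in part. Rrm2, the regulated subunit of ribonucleotide reductase, read 70.2 in knockout heme and 110 in knockout vehicle, and 63.9 in wild-type heme and 83.7 in wild-type vehicle. Both heme arrays were again lower, with log2 differences of -0.65 in the knockout and -0.39 in wild type. Rrm1, the large subunit of that enzyme, read 107 in knockout heme and 128 in knockout vehicle, and 114 in wild-type heme and 105 in wild-type vehicle, so that the response was -0.27 in the knockout and 0.11 in wild type. Tyms, which makes thymidylate, read 59.7 in knockout heme and 68.5 in knockout vehicle, and 63.9 in wild-type heme and 71.7 in wild-type vehicle, with differences of -0.20 and -0.17 that are smaller than the robust SD of single genes.

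The MCM helicase subunits did not move as a block in wild type. In the knockout, 6 of 6 were lower with heme, with differences between -0.14 (Mcm7) and -0.42 (Mcm3). In wild type Mcm7 (-0.80), Mcm6 (-0.69) and Mcm4 (-0.27) were lower, and Mcm5 (0.47), Mcm3 (0.15) and Mcm2 (0.02) higher. Mcm5 read 51.7 in knockout heme and 60.3 in knockout vehicle, and 43.7 in wild-type heme and 31.6 in wild-type vehicle. The wild-type vehicle array was the low one, and the genotype difference in vehicle, 0.93, was the largest of the 36 genes. Mcm6 read 74.4 in knockout heme and 91.6 in knockout vehicle, and 46.3 in wild-type heme and 74.5 in wild-type vehicle. Mcm7 read 45.4 in knockout heme and 50.1 in knockout vehicle, and 31.7 in wild-type heme and 55.1 in wild-type vehicle. At both genes the wild-type heme array stood alone at the bottom and the knockout arrays differed by -0.30 and -0.14 (heme minus vehicle). Mcm2 read 50.4 in knockout heme and 62.3 in knockout vehicle, and 46.7 in wild-type heme and 46.1 in wild-type vehicle. Mcm3 read 30.5 in knockout heme and 40.7 in knockout vehicle, and 34.9 in wild-type heme and 31.6 in wild-type vehicle. Mcm4 read 71.3 in knockout heme and 87.8 in knockout vehicle, and 73.4 in wild-type heme and 88.3 in wild-type vehicle. Mcm2 and Mcm3 were highest in knockout vehicle, and Mcm4 was near equal on the 2 vehicle arrays and lower on both heme arrays.

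The factors that load and start the helicase split. Cdc6, a loader of the helicase onto origins, read 45.9 in knockout heme and 24.97 in knockout vehicle, and 30.7 in wild-type heme and 24.96 in wild-type vehicle. It was higher with heme in both genotypes, by 0.88 in the knockout and 0.30 in wild type, opposite to most other replication genes, and knockout heme was the 1 array above the level of 30.96. Cdt1, which loads the helicase with Cdc6, read 56.8 in knockout heme and 61.9 in knockout vehicle, and 42.5 in wild-type heme and 59.7 in wild-type vehicle, with the wild-type heme array lowest. Gins2, a subunit of the GINS complex of the active helicase, read 105 in knockout heme and 112 in knockout vehicle, and 94.9 in wild-type heme and 110 in wild-type vehicle. Of the E cyclins, which drive entry into DNA synthesis, Ccne1 read 47.3 in knockout heme and 47.9 in knockout vehicle, and 45.3 in wild-type heme and 57.9 in wild-type vehicle, and Ccne2 read 57.9 in knockout heme and 57.2 in knockout vehicle, and 47.2 in wild-type heme and 53.4 in wild-type vehicle. Wild-type heme was the lowest array for 8 of the 15 replication genes, against 26.3% of all genes.

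Of the mitotic kinase and its cyclins, Cdk1 read 82.5 in knockout heme and 110 in knockout vehicle, and 84.8 in wild-type heme and 110 in wild-type vehicle. Heme differences were -0.42 and -0.38, and the genotypes were within 0.04 of each other in both treatments. Ccnb2, a B cyclin that activates Cdk1, read 170 in knockout heme and 228 in knockout vehicle, and 151 in wild-type heme and 174 in wild-type vehicle. Ccna2, the cyclin of DNA synthesis and early mitosis, read 129 in knockout heme and 166 in knockout vehicle, and 137 in wild-type heme and 141 in wild-type vehicle. For both cyclins knockout vehicle was the highest array and the knockout response (-0.43 and -0.37) the larger of the 2.

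The kinases that build and time the spindle did not share a direction. Aurka, the centrosomal Aurora kinase, read 64.6 in knockout heme and 86.5 in knockout vehicle, and 55.2 in wild-type heme and 76.6 in wild-type vehicle, with heme differences of -0.42 in the knockout and -0.47 in wild type. Aurkb, the kinase of the chromosomal passenger complex, read 85.1 in knockout heme and 71.4 in knockout vehicle, and 68.6 in wild-type heme and 97.0 in wild-type vehicle, a response of 0.25 in the knockout and -0.50 in wild type. Its partner Birc5 (survivin) read 105 in knockout heme and 95.5 in knockout vehicle, and 120 in wild-type heme and 85.8 in wild-type vehicle, higher with heme in both. In wild type Aurkb and Birc5, whose proteins work in 1 complex, had heme differences of opposite sign. Plk1, a kinase of mitotic entry, read 49.5 in knockout heme and 55.6 in knockout vehicle, and 49.8 in wild-type heme and 46.5 in wild-type vehicle. Tpx2, the activator of Aurka on the spindle, read 41.3 in knockout heme and 43.2 in knockout vehicle, and 39.6 in wild-type heme and 38.7 in wild-type vehicle, and its 4 values spanned less than the robust SD of single genes.

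The spindle checkpoint holds cells in metaphase until chromosomes are attached. Of its kinases, Bub1 read 52.5 in knockout heme and 52.1 in knockout vehicle, and 63.1 in wild-type heme and 44.5 in wild-type vehicle, so that the wild-type arrays were the extremes. Bub1b read 77.1 in knockout heme and 73.2 in knockout vehicle, and 70.5 in wild-type heme and 64.2 in wild-type vehicle. Ttk, the checkpoint kinase MPS1, read 17.8 in knockout heme and 24.4 in knockout vehicle, and 19.0 in wild-type heme and 17.8 in wild-type vehicle, below the level of 30.96 on all 4 arrays. Cdc20, the activator of the anaphase-promoting complex, read 38.6 in knockout heme and 41.1 in knockout vehicle, and 37.9 in wild-type heme and 37.4 in wild-type vehicle, and had the smallest range of the 36.

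Centromere genes held the largest heme difference among mitosis genes. Cenpa, the histone variant that marks centromeres, read 203 in knockout heme and 328 in knockout vehicle, and 238 in wild-type heme and 354 in wild-type vehicle. Both heme arrays were below both vehicle arrays, with differences of -0.69 and -0.57, and the knockout was slightly below wild type in both treatments (-0.22 and -0.11). Cenpf, a kinetochore protein, read 32.9 in knockout heme and 39.9 in knockout vehicle, and 29.4 in wild-type heme and 25.2 in wild-type vehicle, a genotype difference in vehicle of 0.66. Cenpe, the kinetochore motor, read 48.7 in knockout heme and 48.5 in knockout vehicle, and 53.02 in wild-type heme and 43.1 in wild-type vehicle.

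Motors, bundlers and chromosome proteins held several genes whose heme difference had opposite signs in the genotypes. Mki67, the Ki-67 proliferation marker that coats mitotic chromosomes, read 160 in knockout heme and 182 in knockout vehicle, and 190 in wild-type heme and 137 in wild-type vehicle. The response was -0.19 in the knockout and 0.48 in wild type, and wild-type vehicle was the low array. Top2a, the topoisomerase that untangles sister chromatids, read 123 in knockout heme and 162 in knockout vehicle, and 127 in wild-type heme and 128 in wild-type vehicle. Knockout vehicle alone was high, and the other 3 arrays lay together. A dim second Top2a probe set, averaged in on the log2 scale, turned the knockout response of -0.40 to 0.02 and the genotype difference in vehicle of 0.34 to -0.02. Prc1, which bundles microtubules of the central spindle, read 43.0 in knockout heme and 53.9 in knockout vehicle, and 46.7 in wild-type heme and 38.7 in wild-type vehicle. Nusap1, a spindle-associated protein, read 61.6 in knockout heme and 75.4 in knockout vehicle, and 67.7 in wild-type heme and 55.6 in wild-type vehicle. Both showed wild-type vehicle lowest and knockout vehicle highest. Kif11, the motor that separates spindle poles, read 49.8 in knockout heme and 44.4 in knockout vehicle, and 59.6 in wild-type heme and 48.8 in wild-type vehicle, the 1 gene lowest in knockout vehicle. Kif20a, a motor of cytokinesis, read 37.01 in knockout heme and 50.5 in knockout vehicle, and 40.2 in wild-type heme and 45.3 in wild-type vehicle, with heme arrays lower in both genotypes (-0.45 and -0.17).

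Mitosis genes with and without the CHR core TTTGAA in the promoter were set side by side. With heme in the knockout, the 13 genes that hold it had a median of -0.33 and the 4 measured genes without it 0.01. In wild type the medians were 0.10 and 0.39. TTTAAA did not count as a core in this split, so a gene without TTTGAA may still hold that form. Replication genes with a match to TTCGCGC or TTGGCGC (5) had medians of -0.22 in the knockout and -0.49 in wild type. The 7 without a match had -0.27 and -0.17. Other forms of E2F site were not searched, so a gene without a match may still hold one. Over the array, 1076 genes with both a CHR core and an NF-Y box had medians of -0.03 in the knockout and -0.01 in wild type, close to the -0.01 of the 14538 genes without both in either genotype.

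Other genes of the cell cycle had medians of the same sign in both comparisons that use the knockout vehicle array. The 32 measured genes of another replication list had medians of -0.12 for heme in the knockout and 0.10 for the knockout in vehicle. The 54 genes of another mitosis list had -0.11 and 0.10. In the first, 3 genes were 1.5-fold lower and 0 higher with heme in the knockout, where 3.07% and 5.03% of all genes at level were: the primase subunit Prim2 (30.6 and 59.7 in heme and vehicle, -0.96), Dbf4, the activator of the origin-firing kinase (44.8 and 75.2, -0.75), and the DNA ligase Lig1 (53.1 and 82.4, -0.63). In the second, against the same shares, 4 were lower, with the kinetochore gene Nuf2 (-0.96), the cytokinesis gene Cep55 (-0.93) and the condensin subunit Smc2 (-0.73) in front, and 2 were higher, among them Cenpm (0.69). One gene of these lists passed 2-fold between arrays: Cenpw, a kinetochore gene, read 62.5 in knockout heme and 89.8 in knockout vehicle, and 63.9 in wild-type heme and 29.8 in wild-type vehicle. It was 1.59 higher in the knockout in vehicle and 1.10 higher with heme in wild type, and both differences use the low wild-type vehicle array.

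Among regulators, the G1 list came nearest to these genes for heme in the knockout, and the E2F list lay near 0. Of 20 genes of the E2F, RB, MYB and FOXM1 families, 0 were 2-fold different in any comparison of arrays. Of all genes at level, 0.452% to 1.2% were, for each direction and comparison. The medians of the list lay between -0.04 and 0.00. At 1.5-fold, E2f2, E2f8 and Rbl1 were lower with heme in wild type and 0 higher, where 4.73% and 4.99% were. In knockout vehicle E2f2, E2f8 and Tfdp2 were lower than in wild-type vehicle and 0 higher, where 4.31% and 3.25% were. E2f6 was higher with heme in the knockout and Rbl1 higher in the knockout with heme, where 5.03% and 3.38% were. E2f2, an activator of replication genes, read 56.4 in knockout heme and 41.8 in knockout vehicle, and 48.3 in wild-type heme and 72.6 in wild-type vehicle, and E2f8, a repressor of the family, 37.3 in knockout heme and 37.6 in knockout vehicle, and 44.2 in wild-type heme and 70.5 in wild-type vehicle. Both were lower in knockout vehicle than in wild-type vehicle (-0.80 and -0.91), the direction opposite to most replication genes. The 14 cyclins and kinases of G1 and their partners had medians of -0.25 for heme in the knockout, with 10 lower, and 0.11 for the knockout in vehicle, with 11 higher. Of all genes 52.5% were lower in the first comparison and 51.7% higher in the second. Among them Cdk2 alone was 1.5-fold lower with heme in the knockout (104 and 172, -0.73), where 3.07% of genes at level were. Skp2, which targets CDK inhibitors for destruction, was higher in knockout vehicle (62.2, against 39.0 in wild-type vehicle). It alone was 1.5-fold higher there, where 3.25% were. The 8 measured genes of the CDK inhibitor list, which include the kinase genes Wee1 and Pkmyt1, had medians between -0.02 and 0.05. At 2-fold 0 differed, where 0.452% to 1.2% of genes at level did, and Cdkn1a was not analysed here. With heme, Wee1 (0.71) was 1.5-fold higher and Cdkn2b (-0.77) lower in the knockout, where 3.38% and 3.43% of genes at level were. The 18 p53 and growth arrest genes had a median genotype difference of 0.14 in vehicle, with 13 higher in the knockout. With heme it was 0.09, with 11 higher. Of all genes 51.7% and 50.2% were higher. Their median heme differences were -0.04 in the knockout and 0.01 in wild type. At 1.5-fold, 1 gene was higher and 1 lower in the knockout, where 5.03% and 3.07% of genes at level were. In wild type 2 were higher and 2 lower, where 4.99% and 4.73% were. Those lower were Plk2 (-0.65) in the knockout and Zmat3 (-0.67) and Phlda3 (-0.59) in wild type. Gadd45b, a stress sensor that can halt the cycle, was higher with heme in both genotypes: 112 in knockout heme and 63.6 in knockout vehicle, and 107 in wild-type heme and 53.5 in wild-type vehicle.

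In the MYC and GM-CSF signalling list, Jak2, Cish and, with heme, Socs2 differed more between genotypes than any of the 36 cell cycle genes. Jak2, the kinase of the GM-CSF receptor, read 175 in knockout heme and 132 in knockout vehicle, against 485 in wild-type heme and 454 in wild-type vehicle. Cish, a feedback inhibitor and STAT5 target, read 108 in knockout heme and 122 in knockout vehicle, and 402 in wild-type heme and 280 in wild-type vehicle. Socs2, of the same kind, read 138 in knockout heme and 167 in knockout vehicle, and 314 in wild-type heme and 313 in wild-type vehicle. For all 3, both knockout arrays were below both wild-type arrays. The differences were -1.47 and -1.78 for Jak2, -1.89 and -1.197 for Cish and -1.18 and -0.91 for Socs2 (heme and vehicle). Other genes of the list, named after their values were seen, differed less: Csf2rb (-0.25 and -0.16), Stat5a (-0.06 and -0.08) and Stat5b (0.04 and -0.06). Most of the list was lower in the knockout: 16 of 22 genes with heme (median -0.19) and 17 with vehicle (median -0.30). At 1.5-fold, 4 were lower with heme, among them Socs3 (-0.76), and 5 with vehicle, among them Max (-0.79). Of genes at level 3.43% and 4.31% were. None of the list was 1.5-fold higher, where 3.38% and 3.25% were. Of the 22 genes in that list, 3 were 2-fold lower and 0 higher with heme, where 0.973% and 0.519% of all genes at level were, and 2 were lower and 0 higher with vehicle, where 1.14% and 0.525% were. Myc, a driver of growth named after its values were seen, read 288 in knockout heme and 371 in knockout vehicle, and 429 in wild-type heme and 600 in wild-type vehicle.

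**Figure D5:**
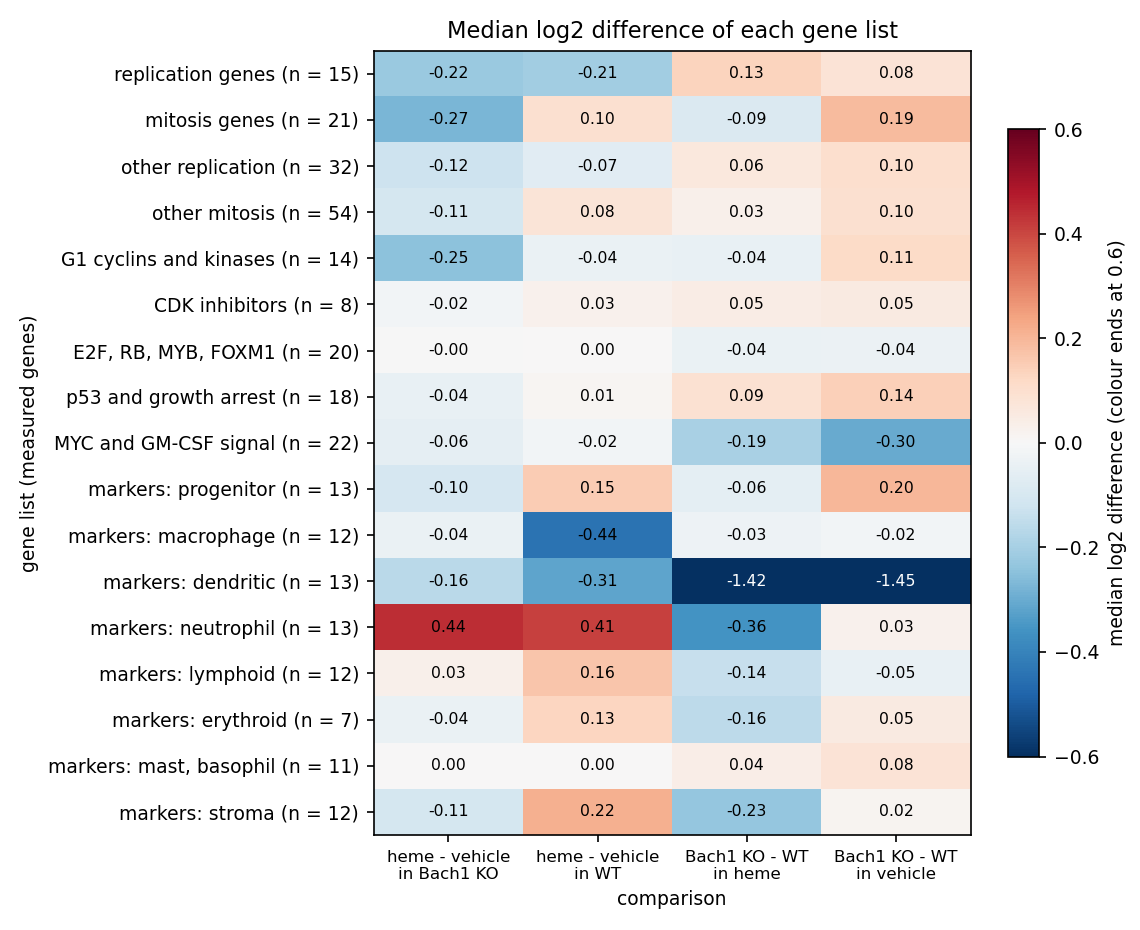
Median log2 difference of each gene list (rows, with the number of measured genes) in the 4 comparisons of arrays (columns); red is higher and blue lower, and the colour scale ends at 0.6. Replication and mitosis genes stand at -0.22 and -0.27 for heme in the knockout, beside -0.10 for progenitor markers and 0.44 for neutrophil markers.

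Markers of other cells moved between the same arrays. Of 13 progenitor markers, 4 reached the level of 30.96 on any array, and their summed signal was 1373 in knockout heme and 1550 in knockout vehicle, against 1092 in wild-type heme and 1132 in wild-type vehicle. Cd93 made up most of that sum, and the other 12 markers summed to 274.8 in knockout heme and 279.03 in knockout vehicle, and 287.8 in wild-type heme and 244.1 in wild-type vehicle, so that without Cd93 the knockout was below wild type with heme. Over all 13 markers the median was 0.20 for the knockout in vehicle and -0.10 for heme in the knockout, the same directions as the cell cycle genes. It was 0.15 for heme in wild type and -0.06 for the knockout with heme, where the cell cycle medians were 0.00 and 0.01. Prtn3, a granule protease of early myeloid cells, read 36.4 in knockout heme and 38.0 in knockout vehicle, and 48.7 in wild-type heme and 21.2 in wild-type vehicle, and Mpo, myeloperoxidase, 36.6 in knockout heme and 41.9 in knockout vehicle, and 28.9 in wild-type heme and 26.3 in wild-type vehicle. The 13 neutrophil markers had median heme differences of 0.44 in the knockout (12 above 0) and 0.41 in wild type (13 above 0). Their summed signals were 12272 and 9553 in the knockout and 15113 and 11365 in wild type (heme and vehicle). Summed dendritic markers were 3130 in knockout heme and 3817 in knockout vehicle, and 10148 in wild-type heme and 12720 in wild-type vehicle, and summed macrophage markers lay between 18044 and 20041, with a median heme difference of -0.04 in the knockout and -0.44 in wild type. Lyz2 alone read 9990 to 10705, and the macrophage sums hide differences of single genes. In vehicle, 4 of 12 were 2-fold lower in the knockout and 1 higher, where 1.14% and 0.525% of genes at level were. C1qa (-2.80), C1qc (-2.42) and C1qb (-2.00) were among the lower, and Marco (2.39) was the higher. Summed lymphoid, erythroid, and mast cell and basophil markers were between 159 and 196 on every array, and stromal markers between 339 and 470. No listed marker was at 0. Sums without a list's brightest gene were added after seeing the data. The part of these cell types in the cell cycle differences was not tested.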

How the data were processed

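RNA from 4 cultures was measured on 1 mouse whole-transcript array each. The authors deposited RMA values, which the files hold as linear intensity; RMA is named, without a version, in the submitters' processing notes. Detection calls were not used here, so the distance of dim probe sets from background is unknown. The series design text speaks of sorted progenitors and a different RNA kit; grouping followed the sample labels instead. Of 35556 probe sets, 21789 carried 1 gene symbol and 1621 several. Each of 19938 genes was read from the probe set with the highest mean log2 signal, with no further scaling.

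The cell cycle genes and 15 other lists were chosen with earlier results of these data known. All 37 genes are named; other lists give up to 4 genes at level with the largest difference of at least 1.5-fold. Fold calls were tested on simulated data. Robust SD is 1.4826 times the median absolute deviation over genes at level. Alternatives were folds of 1.5 and 3, no level filter or one at the 75th percentile, repeated quantile normalization, lowess centring, 32 added before log2, the mean of probe sets, a shorter promoter window and TTTAAA as a further CHR core. Tools were matplotlib 3.10.9, statsmodels 0.14.6, pandas 2.3.3, numpy 2.4.6 and Python 3.11.15.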

Additional observations from a re-analysis of the deposited data

Results flagged for a closer look

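The heme responses of the genotypes pointed in opposite directions for the mitosis genes as a group, with a median of -0.27 in the knockout and 0.10 in wild type (log2, 21 genes). With the level at the 75th percentile the medians were -0.41 in the knockout and -0.04 in wild type, and the signs were no longer opposite. With 1 array per group this difference was not tested. Among single cell cycle genes at level, and picked because both responses passed the robust SD of their comparison in opposite directions, Nusap1 stood at -0.29 in the knockout and 0.28 in wild type. In the other replication and mitosis lists and the G1, CDK inhibitor and E2F lists, the same held for Dbf4 (-0.75 in the knockout and 0.56 in wild type), Cenpw (-0.52 and 1.10), Pbk (-0.55 and 0.32) and the CDK inhibitor gene Cdkn2b (-0.30 and 0.33). The others ran the other way: Cdca5, which protects sister chromatid cohesion, stood at 0.29 in the knockout and -0.34 in wild type, and E2f2 at 0.43 and -0.59. Nusap1 only just passed the rule in wild type, where the robust SD was 0.28, and read 0.25 there with quantile normalization again. The share of all genes that meet the rule was not counted, so these genes stand without a background. None of these differences was tested.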

How the results depend on the processing

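No paired analysis was possible because each group held 1 array and the labels carry no replicate numbers. Counts at 2-fold stayed 0 with no level filter, quantile normalization again, lowess centring and the mean of probe sets. They were also 0 under a 3-fold rule, a level at the 75th percentile and 32 added before log2. Those settings check little, because a stricter rule cannot raise a count of 0 and the addition shrinks each difference between 2 arrays. At 1.5-fold the counts were 1 higher and 2 lower for heme in the knockout, 0 and 2 for heme in wild type, 1 and 0 for the knockout with heme, 2 and 0 for the knockout in vehicle, and 2 and 3 for the difference of the heme responses. With the level at the 75th percentile, a signal of 106, only 8 to 11 of the genes were left. The median heme difference was then -0.41 in the knockout for all, replication and mitosis genes alike, and -0.12 in wild type for all. In wild type that median was reversed to -0.04 for mitosis genes. The genotype difference with heme, knockout minus wild type, was reversed to -0.02 for replication genes. The difference of the responses became -0.15 for replication genes. With 32 added before log2, the knockout heme medians were -0.15 for all genes and -0.16 for mitosis genes, a change that addition makes by construction at low signals. Quantile normalization again left 5 of 36 genes, and 1 of 15 replication genes, higher with heme in the knockout; the cause was not tested. Most of these genes read under a signal of 106, and with 1 array per group their differences cannot be told from variation between cultures.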

Other observations

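A second probe set annotated to Top2a alone read 13.8 in knockout heme and 10.3 in knockout vehicle, and 12.8 in wild-type heme and 13.3 in wild-type vehicle, below the level on every array. A further 2 probe sets name both Top2a and Hibadh and were not used. They read 129 and 201 in knockout heme and 69.2 and 99.7 in knockout vehicle, and 151 and 224 in wild-type heme and 125 and 184 in wild-type vehicle. Knockout vehicle was the low array at both, where the Top2a probe set used above had it as the high one. The annotation used here does not say which transcript these 2 probe sets measure.

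The genotype differences with heme and with vehicle share no array. Across the 36 cell cycle genes they had a Pearson r of -0.10, and 15 genes were higher in the knockout in both treatments and 4 lower in both. Across all genes r was 0.25, and 28.1% were higher in both and 26.1% lower in both. Genes of 1 pair of arrays are not independent, and no test was made.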
